A study of Mus musculus with 8 samples.

Results

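KLS cells were compared with MEP cells of mouse bone marrow over 2 genotypes, with all 8 arrays of the series: 4 KLS and 4 MEP arrays, chosen by sample title. All mice were of strain C57BL/6J. The genotypes were wild type (WT) and transgenic (TG), and the genotype label of the TG mice names ∆Hmga2, read here as a shortened Hmga2 gene. Each genotype gave 2 KLS and 2 MEP arrays, and each array came from its own RNA preparation of flow-sorted cells pooled from 4 or 6 mice. The promoter that drives the transgene, the number of founder lines, the age of the mice and the antibodies of the sort are not stated in the sources at hand. The genes were the 19938 with a probe set that carries a single gene symbol, each measured by its brightest probe set. Values are log2 signals of a probe set, so they set arrays against each other and never 1 gene's level against another's.

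KLS cells carry Kit and Sca-1 and no lineage antigens, and they hold the blood stem cells and the multipotent progenitors that can still form every blood lineage. MEP cells are committed progenitors of red cells and megakaryocytes. During that commitment, progenitors are known to lose receptors and regulators of the myeloid and lymphoid branches and to build up the erythroid programme under factors such as GATA1 and KLF1. Hmga2 encodes a chromatin protein of fetal and stem cells.

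The labels were checked on marker genes of both populations. The stem cell regulator Hlf differed by 2.24 ± 0.10 (log2, KLS minus MEP, SE; adjusted p = 0.000123 in limma), and Cd34, Flt3 and Meis1 were called higher in KLS cells too. Kit, the receptor that both gates share, differed by 0.48 ± 0.14 and was not called (adjusted p = 0.149 in limma), and Ly6a, which encodes Sca-1, has no probe set with a single symbol. Of 6 defining erythroid genes, only the transferrin receptor Tfrc was called, at -0.56 ± 0.10. Gata1 differed by -0.50 ± 0.11 (adjusted p = 0.057 in limma). Klf1 and Epor differed by -0.20 ± 0.10 and -0.24 ± 0.12, and Zfpm1 ran the other way at 0.12 ± 0.12. Of 39 erythroid and megakaryocyte progenitor markers, 3 were called, all MEP-high, and 3 lay above 0, with a median of -0.39. Among 13 megakaryocyte and platelet markers, 10 lay above 0 and 1 was called, KLS-high. Their mean was 6.69 to 6.92 on the KLS and 6.28 to 6.64 on the MEP arrays. The carbonic anhydrase gene Car1 lay between 12.78 and 12.89 on the KLS arrays and between 12.92 and 12.96 on the MEP arrays, so the KLS arrays carried it at nearly the MEP level. Neutrophil genes were bright throughout: S100a8 lay between 12.31 and 12.88 in KLS and between 11.18 and 12.45 in MEP cells. The mean over 22 B cell markers was 8.44 on the first WT MEP array (WT MEP 1), against 6.59 to 6.70 on the other 3 MEP arrays. The KLS arrays had 7.11 to 7.53. The same array carried the stem cell list at 7.20, against 6.77 to 6.84 on the other MEP arrays. In bulk RNA, fewer cells of a type and less RNA per cell cannot be told apart.

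**Figure D1:**
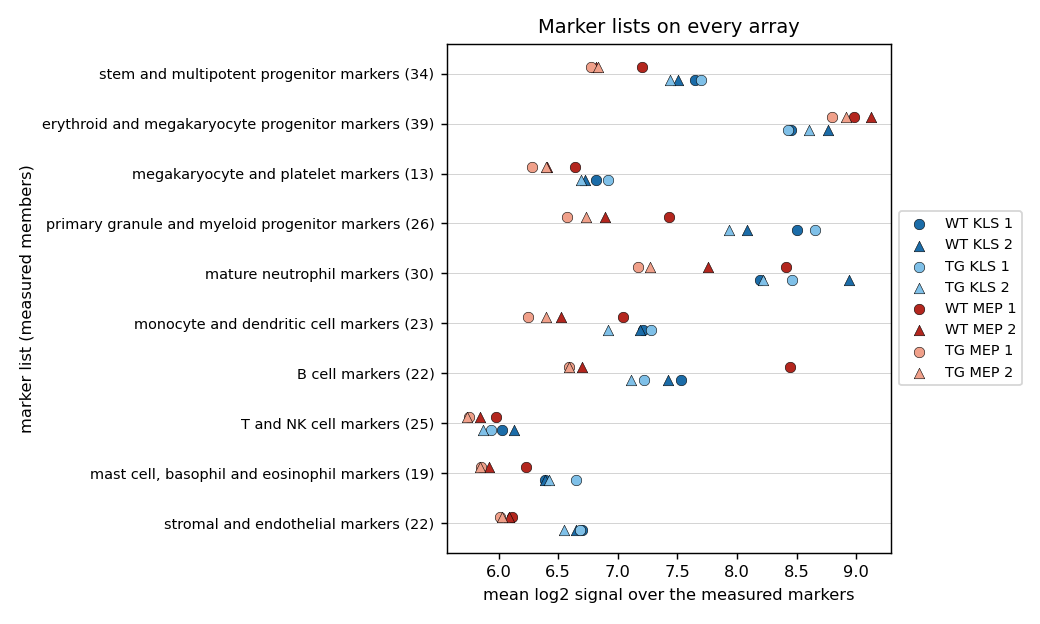
Mean log2 signal (x axis) of each marker list (y axis, with the number of measured markers) on every array. Blue points are KLS arrays, red points are MEP arrays, circles are the first and triangles the second replicate. WT MEP 1 lies closest to the KLS arrays for the stem cell list, at 7.20, and above all of them for the B cell list, at 8.44.

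Over both genotypes, 240 genes were higher in KLS cells and 79 were higher in MEP cells (adjusted p under 0.05 in limma, Benjamini-Hochberg over all genes). That is 1.2% and 0.396% of the genes tested. Differences were larger on the KLS-high side, where the median was 1.18, with 146 past 2-fold and 34 past 4-fold. The MEP-high genes had a median of 0.67, a largest difference of -1.27, and 5 past 2-fold. The median over all genes was 0.01. All 4 KLS arrays lay above all 4 MEP arrays for 220 of the 240 genes, where 4.41% of all genes did so, and below them for 77 of the 79, where 4.63% of all genes did so.

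Each difference was then read within WT and within TG mice, with 2 arrays against 2. A difference was said to hold within a genotype where both KLS arrays lay on 1 side of both MEP arrays. Every one of the 319 genes kept its direction in both genotypes. Of the 240 KLS-high genes, 234 held in WT and all 240 in TG mice. The 6 that did not hold in WT were Cd52, Clec2i, Cybb, Il15, Lpcat2 and Ngp, and for each of them WT MEP 1 reached into the range of the WT KLS arrays. All 79 MEP-high genes held in both genotypes. Of all genes, 6.98% held in both genotypes with KLS above MEP, and 6.98% with KLS below MEP. The same values chose the called genes, so these counts describe them and do not test them.

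The sizes of the differences were then set side by side for the genotypes. The KLS-high genes had a median difference of 0.98 in WT and 1.32 in TG mice, and 197 of 240 (82.1%) differed more in TG. Over all genes the TG value was the higher in 50.6%. The MEP-high genes ran the other way, with medians of 0.75 in WT and 0.59 in TG mice, and 19 of 79 (24.1%) differed more in TG. WT MEP 1 was the highest MEP array for 203 of the 240 KLS-high genes (84.6%), against 25.8% of all genes. It was the lowest MEP array for 50 of the 79 MEP-high genes (63.3%), against 39.3% of all genes. Its part in the genotype difference was not tested. The test of the genotype difference itself, the interaction, called 0 genes in limma (0% of those tested), and 453 had an unadjusted p under 0.05, where chance alone gives 996.9. A difference in size between the genotypes was thus not shown for any gene. The interaction called 0 without WT MEP 1 and 10 without WT MEP 2.

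**Figure D2:**
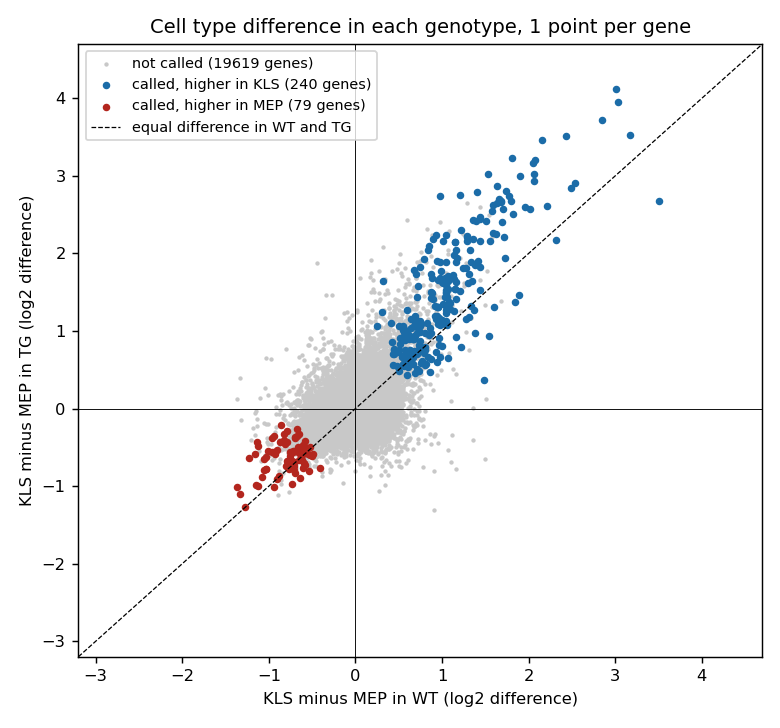
Difference between KLS and MEP cells in WT (x axis) and in TG mice (y axis), in log2 units, with 1 point per gene. Blue points are the 240 genes called higher in KLS cells, red points the 79 called higher in MEP cells, grey points all others, and the dashed line marks equal differences. All coloured points lie in the 2 quadrants of equal sign, and 82.1% of the blue ones lie above the line.

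Fewer genes were called within single genotypes. Within WT mice alone 1 gene passed in limma (Hlf, 0.00502% of all genes), and within TG mice 27 passed (0.135%), all of them KLS-high and all among the 319. An unadjusted p under 0.05 was reached by 1774 genes in WT and 1916 in TG mice, where chance alone gives 996.9. With the TG arrays fitted alone, 284 genes passed, and with the WT arrays alone 0. Without TG MEP 1 or without TG MEP 2 the 27 fell to 0, and without WT MEP 1 the 1 call in WT mice rose to 59. The count over both genotypes depended on single arrays. It was 738 without WT MEP 1, 226 without TG KLS 2, 136 without WT KLS 2, 117 without WT KLS 1, 103 without WT MEP 2, 30 without TG KLS 1, 20 without TG MEP 2 and 1 (Hlf) without TG MEP 1. TG MEP 1 was the lowest MEP array for 140 of the 240 KLS-high genes (58.3%), against 34.5% of all genes. All 319 genes kept their direction with each array left out. By a rule on size and function 77 called genes were named for description, of which Adgrl4, Fcgr3, Ctss and Cst7 are also on a marker list. Without TG MEP 1 none of the 77 passed (adjusted p from 0.0624 to 0.179 in limma). With any 1 array left out Cd63 differed by 1.33 to 1.49, Tfec by 2.44 to 2.90 and Angpt1 by 1.42 to 2.50. Leaving out TG MEP 2 ended 69 of them, TG KLS 1 ended 68, WT KLS 1 ended 47, WT MEP 2 ended 43, WT KLS 2 ended 38, TG KLS 2 ended 25 and WT MEP 1 ended 5. With each array centred on its median in place of quantile normalization, 123 genes were called, 79 KLS-high and 44 MEP-high, and 42 of the 77 were among them. Among the genes described, Arhgef6, Casp1, Slc7a6, Slc16a1, Gsr, Ctss, Hexa, Laptm4b, Cst7, Anxa5, S100a11, S100a1, Acsl4, Acsm3, Myo5a, Srgn, Pkm, Pgam1, Ifitm2, Ifitm3, Sting1, Psmb8, Psmb9, Trps1, Stat4, Etv6, Cited2, Tmem176a and Tes were called neither with the values as deposited nor with median centring, and Gstm1, Gpr171, Klhl12, Bcl2l15, Adgrg3, Vav3, Abcb6, Abcb4, Mgst2, Cers6, Tbxas1, Itih5, Slc11a2, Ecm2, Rab27a, Rab31, Hk3, H2-DMa, Calcrl, Il6st, Batf, Tox, Plac8, Lgals1, Bcl2, Nxpe4, Hcst and Tmem176b were not called with median centring.

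Array values are given in the order WT 1, WT 2, TG 1, TG 2. Differences are KLS minus MEP in log2 units over both genotypes with limma's SE, and adjusted p-values are limma's over all genes. Counts of called list members are to be read against the 1.6% of all genes called, 1.2% KLS-high and 0.396% MEP-high. Counts of members above 0, those of the marker lists included, are to be read against the 53.5% of all genes above 0.

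Among secreted factors, 3 of 40 measured genes were called, all higher in KLS cells, and the median over the list was 0.07. Angpt1, the ligand of the Tie2 receptor that keeps stem cells and vessels quiescent, had signals of 9.34, 9.28, 9.73 and 9.13 on the KLS arrays and 8.88, 6.72, 6.87 and 7.15 on the MEP arrays. The lowest KLS value lay above the highest MEP value, that of WT MEP 1, and the other MEP arrays were lower still. It differed by 1.96 ± 0.39 (adjusted p = 0.0492), with 1.51 in WT and 2.42 in TG mice, and was not called with deposited or median-centred values. Il15, a growth factor of NK and memory T cells, had 6.24, 6.86, 7.58 and 7.49 on the KLS arrays and 6.29, 4.87, 4.60 and 5.0 on the MEP arrays. Its first WT KLS value lay below WT MEP 1, so the difference of 1.85 ± 0.28 (adjusted p = 0.0268) held in TG and not in WT mice. Il18, an inflammatory cytokine released after cleavage by caspase 1, had 6.45, 6.46, 6.69 and 5.86 on the KLS arrays and 5.51, 4.66, 5.07 and 4.94 on the MEP arrays and differed by 1.32 ± 0.22 (adjusted p = 0.0356), with no overlap in either genotype. The chemokine Ccl3, chosen here after its values were seen, had 7.56, 8.57, 8.21 and 9.31 on the KLS arrays and 6.69, 5.80, 5.73 and 6.76 on the MEP arrays and differed by 2.17 ± 0.35 (adjusted p = 0.0335).

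Of all genes called, the receptor gene Adgrl4 had the second largest difference, after the granule protease Ctsg. Adgrl4 encodes an adhesion G protein-coupled receptor best known from endothelium, and its signals were 9.65, 9.92, 10.25 and 9.76 on the KLS arrays and 7.66, 5.84, 5.88 and 6.22 on the MEP arrays. Every KLS array lay more than 3 log2 units above the other 3 MEP arrays, and WT MEP 1 lay between the groups. The difference was 3.50 ± 0.34, or 11.3-fold (adjusted p = 0.00805), with 3.03 in WT and 3.96 in TG mice. Adgrl4 is itself among 22 stromal and endothelial markers, whose mean was 6.55 to 6.70 on the KLS and 6.01 to 6.12 on the MEP arrays, with 4 of the 22 called. The part of such cells in this difference was not tested. Of 41 G protein-coupled receptors measured, 6 were called, all higher in KLS cells, and the list's median was 0.17.

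Gpr65, a receptor that senses extracellular protons, had 8.48, 8.95, 9.15 and 8.67 on the KLS arrays and 7.61, 6.47, 6.16 and 6.29 on the MEP arrays and differed by 2.18 ± 0.24 (adjusted p = 0.00935), and it was also called within TG mice alone. Gpr171 showed how far WT MEP 1 could stand from the other MEP arrays: its signals were 9.66, 9.84, 9.97 and 9.78 on the KLS arrays and 9.27, 6.95, 7.01 and 7.0 on the MEP arrays. The other 3 MEP values lay within 0.1 of each other, and the difference was 2.25 ± 0.40 over all arrays (adjusted p = 0.0407). The adhesion receptor Adgrg3 had 8.66, 8.07, 8.46 and 7.92 on the KLS arrays and 7.50, 6.55, 5.96 and 6.63 on the MEP arrays and differed by 1.62 ± 0.25 (adjusted p = 0.0296). Its neighbour Adgrg1 and the leukotriene B4 receptor Ltb4r1 completed the 6. With arrays centred on their medians, 2 of the 6 were called, and without WT MEP 1, 9 of the 41.

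Both chains of 1 neuropeptide receptor were among the called genes, a pair picked after its values were seen. Calcrl, the receptor chain for CGRP and adrenomedullin, had 9.09, 9.18, 9.43 and 9.02 on the KLS arrays and 8.42, 7.76, 7.40 and 7.86 on the MEP arrays and differed by 1.32 ± 0.18 (adjusted p = 0.0153). Ramp1, the partner that makes it a CGRP receptor, had 8.69, 8.50, 8.81 and 8.45 on the KLS arrays and 7.74, 7.35, 7.05 and 7.23 on the MEP arrays and differed by 1.27 ± 0.13 (adjusted p = 0.00837). For both, the KLS and MEP arrays did not overlap in WT or in TG mice. Il6st, the signalling chain shared by receptors of the interleukin 6 family, differed by 1.61 ± 0.28 (adjusted p = 0.0362), and Il18rap, the accessory chain of the interleukin 18 receptor, by 1.24 ± 0.16 (adjusted p = 0.0136). Both were picked after their values were seen. Ligand and receptor chain of interleukin 18 thus both had higher signals on the KLS arrays.

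Of 36 TNF family ligands and receptors, 2 were called, both receptors and both higher in KLS cells. Cd27, a costimulatory receptor that also marks multipotent progenitors, had 8.48, 8.63, 8.85 and 8.24 on the KLS arrays and 7.38, 6.28, 6.89 and 6.33 on the MEP arrays. All 4 KLS arrays lay above all 4 MEP arrays, with a difference of 1.83 ± 0.25 (adjusted p = 0.0162), 1.73 in WT and 1.93 in TG mice. Tnfrsf26, another receptor of the same family, had 7.19, 7.29, 7.19 and 6.86 on the KLS arrays and 6.54, 5.86, 6.12 and 5.68 on the MEP arrays and differed by 1.08 ± 0.17 (adjusted p = 0.0322).

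Innate sensing receptors and their adaptors held the most calls among the 36 lists other than the marker lists: 9 of 44, all higher in KLS cells, with a list median of 0.48, 0.33 in WT and 0.76 in TG mice. That was 20.5% of the list, against 1.6% of all genes. Clec12a, an inhibitory C-type lectin of myeloid cells, had 9.22, 9.20, 9.36 and 8.89 on the KLS arrays and 7.70, 6.59, 6.24 and 6.16 on the MEP arrays. The lowest KLS value lay more than 1 log2 unit above the highest MEP value, and the difference was 2.49 ± 0.22, or 5.64-fold (adjusted p = 0.00797). Tyrobp, the DAP12 adaptor that carries the signals of such receptors, had 11.53, 11.81, 11.46 and 11.25 on the KLS arrays and 10.95, 10.10, 9.42 and 9.33 on the MEP arrays and differed by 1.56 ± 0.18 (adjusted p = 0.0103). Casp1, the protease of the inflammasome, had 8.10, 7.75, 8.63 and 8.06 on the KLS arrays and 7.70, 5.74, 5.35 and 5.84 on the MEP arrays. WT MEP 1 came within 0.1 of the lower WT KLS array, and the difference was 1.98 ± 0.37 (adjusted p = 0.0433), with 1.21 in WT and 2.75 in TG mice. The IgG receptor Fcgr3 differed by 1.65 ± 0.27 (adjusted p = 0.0335), and the others were Fcer1g, Sirpa, Trem3, Clec4a2 and Cd33.

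Myeloid markers moved with this group. The mean of 26 primary granule and myeloid progenitor markers was 7.94 to 8.65 on the KLS and 6.57 to 7.43 on the MEP arrays, with 11 of 26 called. The 30 mature neutrophil markers had means of 8.20 to 8.94 and 7.17 to 8.41, with 3 called, and the 23 monocyte and dendritic cell markers 6.92 to 7.28 and 6.25 to 7.05, with 3 called. The highest MEP value was that of WT MEP 1 in each of the 3 lists. The part of these cells in the innate sensing genes and in the granule, annexin and protease inhibitor genes given further on was not tested. Without WT MEP 1, 16 of the 44 innate sensing genes were called, and with median centring 5.

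Membrane proteins with other roles were among the largest differences, and so was the immunoglobulin joining chain Jchain. Emb, an immunoglobulin-type membrane protein that partners monocarboxylate transporters, had 10.24, 10.07, 10.58 and 9.88 on the KLS arrays and 8.76, 7.25, 6.59 and 6.95 on the MEP arrays. The TG MEP arrays were lowest, WT MEP 1 highest among the MEP arrays, and no array crossed. The difference was 2.80 ± 0.30, or 6.99-fold (adjusted p = 0.00837), with 2.15 in WT and 3.46 in TG mice, where it was also called alone. Gria3, a subunit of AMPA-type glutamate receptors, had 9.90, 8.98, 10.01 and 9.09 on the KLS arrays and 8.19, 6.55, 5.95 and 6.74 on the MEP arrays and differed by 2.64 ± 0.39 (adjusted p = 0.0222). Fxyd5, a regulator of the sodium pump, had 10.61, 10.35, 10.57 and 9.97 on the KLS arrays and 9.28, 7.76, 7.67 and 7.67 on the MEP arrays. On 3 of the MEP arrays it lay between 7.67 and 7.76, and the difference was 2.28 ± 0.29 (adjusted p = 0.0136). Jchain, which joins the chains of polymeric IgA and IgM, had 8.93, 9.67, 7.89 and 7.58 on the KLS arrays and 6.55, 5.03, 4.75 and 5.37 on the MEP arrays and the largest difference outside the marker lists, 3.09 ± 0.32 or 8.51-fold (adjusted p = 0.00837). Both WT KLS arrays lay above both TG KLS arrays for it, and the mean over the 22 B cell markers had the same order of the KLS groups, at 7.53 and 7.42 on the WT KLS, 7.22 and 7.11 on the TG KLS and 6.59 to 6.70 on the last 3 MEP arrays. On WT MEP 1 that mean was 8.44, above all KLS arrays, where Jchain was not. Of the 22 markers 18 lay above 0 and 0 were called. Their part in the Jchain difference was not tested.

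**Figure D3:**
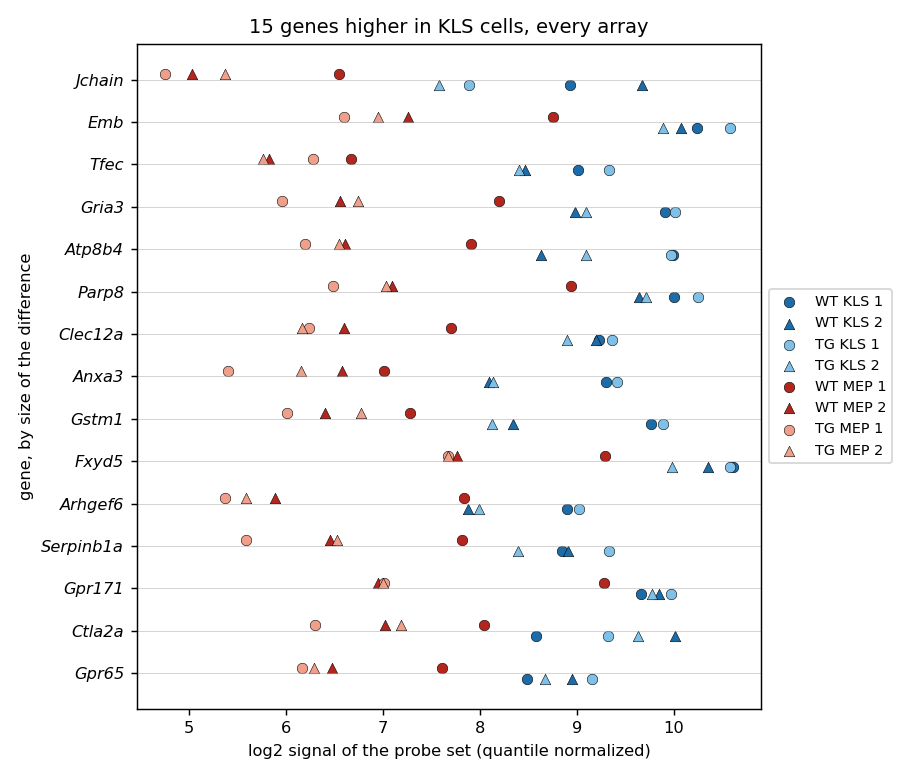
Log2 signal (x axis) on every array for the 15 KLS-high genes with the largest differences outside the marker lists whose arrays did not overlap (y axis, by size). Blue points are KLS arrays, red points are MEP arrays, circles are the first and triangles the second replicate. WT MEP 1 is the rightmost red point in every line, as for Gpr171 at 9.27, and the other MEP arrays lie further left.

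Adhesion receptors and tetraspanins gave 1 call each, 2.70% and 4.76% of their lists against 1.6% of all genes. Alcam, a homophilic adhesion receptor, had 7.61, 7.46, 7.88 and 7.39 on the KLS arrays and 6.94, 6.38, 6.23 and 6.04 on the MEP arrays and differed by 1.19 ± 0.16 (adjusted p = 0.0153) as the only one of 37 integrins and adhesion receptors. Of those 37, 32 lay above 0, with a median of 0.17. Cd63, a tetraspanin of late endosomes and granules, had 11.04, 11.36, 11.24 and 11.22 on the KLS arrays and 10.22, 9.90, 9.43 and 9.67 on the MEP arrays. Its arrays were tight, with KLS values within 0.4 of each other, and the difference of 1.41 ± 0.12 (adjusted p = 0.00797) was also called within TG mice alone. It was the only one of 21 tetraspanins called.

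Arhgef6, Vav3, Myo1f and Lcp1 were each called higher in KLS cells. Arhgef6, an exchange factor for Rac and Cdc42, had 8.90, 7.88, 9.02 and 7.99 on the KLS arrays and 7.83, 5.88, 5.37 and 5.58 on the MEP arrays. The second WT KLS array lay 0.1 or less above WT MEP 1, and the difference of 2.28 ± 0.42 (adjusted p = 0.0421) was 1.53 in WT and 3.03 in TG mice. Vav3, another exchange factor, had 8.02, 7.59, 8.30 and 7.53 on the KLS arrays and 7.13, 5.90, 5.38 and 6.0 on the MEP arrays and differed by 1.76 ± 0.29 (adjusted p = 0.0356). The unconventional myosin Myo1f differed by 1.53 ± 0.22, at an adjusted p of 0.019 in limma. Lcp1, the actin bundler of blood cells and in no list, had 10.70, 10.36, 10.75 and 9.80 on the KLS arrays and 9.78, 8.49, 7.76 and 7.96 on the MEP arrays and differed by 1.91 ± 0.29 (adjusted p = 0.0268).

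Other signalling genes gave few calls. Among 46 tyrosine kinases, phosphatases and adaptors, 42 lay above 0 with a median of 0.31, and 2 were called: the phosphatase Ptpn22, at 1.32 ± 0.24 (adjusted p = 0.0419), and the adaptor Lcp2, also known as SLP-76, at 1.18 ± 0.23 (adjusted p = 0.0487). Lcp2 had 8.70, 8.62, 8.98 and 8.43 on the KLS arrays and 8.35, 7.21, 7.34 and 7.10 on the MEP arrays, so that WT MEP 1 came within 0.1 of the lowest KLS array. Neither was called with the deposited or median-centred values. Rasal3, a Ras GTPase-activating protein, was the only call among 39 Ras and MAP kinase regulators at 0.50 ± 0.10 (adjusted p = 0.0458), and Wls, the carrier that brings Wnt proteins to the surface, the only one among 40 Wnt pathway genes at 1.29 ± 0.22 (adjusted p = 0.0362). Rasal3 was not called with deposited or median-centred values, and Wls not with median centring. Rasal3 and Wls made up 2.56% and 2.5% of their lists, against 1.6% of all genes called. The Wnt list as a whole had a median of 0.03, close to the 0.01 of all genes. The Notch list, with 32 genes, had 0 calls, and its gene with the smallest p, Notch1, differed by 0.42 ± 0.11 (adjusted p = 0.102 in limma).

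Protease inhibitors had the largest share of calls among the 36 lists other than the marker lists: 7 of 27, all higher in KLS cells, while the median of the list was 0.13. That was 25.9% of the list, against 1.6% of all genes. Serpinb1a, an inhibitor of the serine proteases of neutrophil granules, had 8.85, 8.90, 9.33 and 8.39 on the KLS arrays and 7.81, 6.46, 5.58 and 6.53 on the MEP arrays and differed by 2.27 ± 0.33 (adjusted p = 0.022). Cst7, cystatin F, which inhibits lysosomal cathepsins, had 9.95, 8.62, 10.51 and 9.19 on the KLS arrays and 8.27, 6.99, 7.01 and 7.30 on the MEP arrays and differed by 2.18 ± 0.40 (adjusted p = 0.0419). KLS replicate 1 lay above replicate 2 in both genotypes for it, and WT MEP 1 stayed below all 4. Wfdc17 had 6.98, 8.86, 8.15 and 8.46 on the KLS arrays and 6.66, 6.0, 5.70 and 5.67 on the MEP arrays and the reverse order among the KLS arrays, and differed by 2.11 ± 0.35 (adjusted p = 0.0357). Itih5, Slpi, Serpinf1 and Cst3 were the other 4. Ctla2a, in no list and an inhibitor of cathepsin L, had 8.58, 10.01, 9.32 and 9.63 on the KLS arrays and 8.04, 7.01, 6.29 and 7.18 on the MEP arrays and differed by 2.25 ± 0.35 (adjusted p = 0.0268).

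Of 19 annexins and S100 proteins outside the neutrophil markers, 4 were called, all higher in KLS cells, and the median of 0.77 was the highest of the 36 lists. Anxa3, a calcium-dependent binder of membrane phospholipids, had 9.30, 8.10, 9.41 and 8.13 on the KLS arrays and 7.01, 6.57, 5.40 and 6.16 on the MEP arrays. All KLS values lay above 8 and TG MEP 1 was lowest, and the difference was 2.45 ± 0.34 (adjusted p = 0.019). Anxa5 differed by 1.25 ± 0.22, S100a11 by 0.93 ± 0.18 and S100a1 by 0.77 ± 0.13. For Anxa5 and S100a11 the 3 other MEP arrays lay within 0.1 of each other and WT MEP 1 lay above them by more than 0.8. With deposited or median-centred values only Anxa3 of the 4 was called. S100a11 was also not called with the mean over its probe sets in place of the brightest. Among 44 lysosomal genes, 3 were called: the protease Ctss at 1.38 ± 0.26, the hexosaminidase subunit Hexa at 0.93 ± 0.18 and the membrane protein Laptm4b at 0.58 ± 0.11, all of which lost the call with either other scaling.

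Lipid mediator enzymes gave 3 calls of 37, all higher in KLS cells. Alox5ap, the protein that hands arachidonic acid to 5-lipoxygenase in leukotriene synthesis, had 9.65, 10.12, 9.95 and 9.30 on the KLS arrays and 8.92, 7.97, 7.02 and 7.33 on the MEP arrays. The KLS arrays all lay above WT MEP 1, and the difference was 1.94 ± 0.23 (adjusted p = 0.0112), 1.44 in WT and 2.45 in TG mice, and also called within TG mice. Tbxas1, thromboxane synthase, differed by 0.79 ± 0.15 (adjusted p = 0.0465), and Cers6, a ceramide synthase, by 1.52 ± 0.23 (adjusted p = 0.025). Without WT MEP 1 there were 6 calls in this list, and with median centring 1.

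Glutathione genes split between the cell types. Gstm1, a glutathione transferase of the mu class, had 9.76, 8.34, 9.89 and 8.12 on the KLS arrays and 7.28, 6.40, 6.01 and 6.77 on the MEP arrays and differed by 2.41 ± 0.44, or 5.33-fold (adjusted p = 0.0419). Its KLS replicate 1 lay more than 1 log2 unit above replicate 2 in both genotypes. Mgst2, a membrane-bound transferase, differed by 1.76 ± 0.30 (adjusted p = 0.0357) and Gsr, which regenerates reduced glutathione, by 0.75 ± 0.14 (adjusted p = 0.044). In the other direction, Gclc, the catalytic subunit of the enzyme that limits glutathione synthesis, had 8.77, 8.68, 8.78 and 9.03 on the KLS arrays and 9.33, 9.56, 9.51 and 9.41 on the MEP arrays. All 4 MEP arrays lay above all 4 KLS arrays, with a difference of -0.64 ± 0.11 (adjusted p = 0.0362), -0.72 in WT and -0.56 in TG mice. The list of 45 had a median of 0.03. With median centring Gclc was called and Gstm1, Mgst2 and Gsr were not.

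ABC transporters split too. The drug efflux pump Abcb1b, whose activity is used to mark stem cells by dye efflux, had 7.07, 6.98, 7.32 and 6.71 on the KLS arrays and 6.39, 5.48, 5.69 and 5.63 on the MEP arrays and differed by 1.23 ± 0.21 (adjusted p = 0.0357). Abcb6, a porphyrin transporter, had 6.56, 6.62, 6.90 and 6.80 on the KLS arrays and 7.17, 7.52, 7.38 and 7.53 on the MEP arrays and differed by -0.68 ± 0.11 (adjusted p = 0.0346), and Abcb4, which exports phosphatidylcholine, had 9.30, 9.01, 9.23 and 9.40 on the KLS arrays and 9.71, 9.81, 9.89 and 9.88 on the MEP arrays and differed by -0.59 ± 0.11 (adjusted p = 0.0419). Each of the 3 held in both genotypes, and they were the only calls among 29 ABC transporters. Among 42 other transporters, the amino acid exchanger Slc7a6 was higher in KLS cells at 0.79 ± 0.15 and the lactate and pyruvate transporter Slc16a1 in MEP cells at -0.54 ± 0.11, with adjusted p-values of 0.0475 and 0.05 in limma. Both of these, and Abcb4 and Abcb6, lost the call with median centring.

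Atp8b4, Parp8 and Gcnt2 are enzymes that were each called higher in KLS cells. Atp8b4, a member of the P4 ATPases that move phospholipids between membrane leaflets, had 9.99, 8.62, 9.97 and 9.10 on the KLS arrays and 7.91, 6.61, 6.19 and 6.54 on the MEP arrays and differed by 2.61 ± 0.37 (adjusted p = 0.019). Parp8, a mono-ADP-ribosyltransferase whose gene lies next to Emb, had values between 9.64 and 10.25 on the KLS arrays and between 6.48 and 8.94 on the MEP arrays, the highest being WT MEP 1, and differed by 2.51 ± 0.35 (adjusted p = 0.019). Gcnt2, which branches glycan chains into the blood group I structure, had 7.94, 7.91, 8.11 and 7.78 on the KLS arrays and 7.04, 6.26, 5.93 and 6.33 on the MEP arrays and differed by 1.55 ± 0.18 (adjusted p = 0.0105) as the only one of 49 glycosyltransferases. That 1 call was 2.04% of the list, near the 1.6% of all genes. Enzymes of glucose use, picked after their values were seen, were Ldhb at 0.89 ± 0.11, the hexokinase Hk3 at 0.90 ± 0.15, Pkm at 0.82 ± 0.15 and Pgam1 at 0.70 ± 0.13, at adjusted p-values from 0.0126 to 0.0421 in limma. For each of these 4 the KLS arrays lay above the MEP arrays within WT and within TG mice, and none of the 4 differed less in WT than in TG mice.

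Tfec, Satb1, Chd7 and Smarca2 were each called higher in KLS cells. Tfec, a transcription factor of the MiT family that also holds Mitf, had 9.01, 8.46, 9.33 and 8.40 on the KLS arrays and 6.67, 5.82, 6.27 and 5.76 on the MEP arrays. Even WT MEP 1 lay more than 1.5 log2 units below the lowest KLS array, and the difference was 2.67 ± 0.26, or 6.36-fold (adjusted p = 0.00805), 2.49 in WT and 2.85 in TG mice. Satb1, a genome organiser of lymphoid progenitors, had 9.75, 9.29, 9.52 and 9.17 on the KLS arrays and 8.82, 6.81, 6.75 and 6.78 on the MEP arrays. Its other 3 MEP values lay within 0.1 of each other and WT MEP 1 stood 2 units above them, and the difference was 2.14 ± 0.36 (adjusted p = 0.0362). Chd7 differed by 1.25 ± 0.19 and Smarca2, an ATPase of SWI/SNF complexes, by 0.84 ± 0.17, with adjusted p-values of 0.0268 and 0.0481 in limma. These 3 were the calls among 59 chromatin remodellers and lysine methylation enzymes, whose median was 0.01, and none of the 3 was called with median centring, nor Smarca2 with the values as deposited. Chd7 was also not called with the mean over its probe sets in place of the brightest.

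Nfil3, a repressor of clock genes and a factor of innate lymphoid cells, differed by 0.95 ± 0.19 (adjusted p = 0.0492) as the only one of 19 clock genes, and the endoplasmic reticulum stress sensor Ern1 by 1.04 ± 0.19 (adjusted p = 0.0419) as the only one of 36 folding and stress genes. Those calls were 5.26% and 2.78% of their lists, against 1.6% of all genes. Neither Nfil3 nor Ern1 was called with deposited or median-centred values. Transcription factors picked after their values were seen were Trps1 at 1.96 ± 0.37, Stat4 at 1.77 ± 0.35, Etv6 at 1.24 ± 0.24, Cited2 at 0.80 ± 0.13, Batf at 0.83 ± 0.16 and Tox at 0.61 ± 0.11. Stat4 had 7.52, 7.59, 7.81 and 7.30 on the KLS arrays and 7.15, 5.25, 5.15 and 5.59 on the MEP arrays, with WT MEP 1 close to the KLS arrays and the other 3 MEP arrays more than 1.5 units lower. Tox had 7.10, 7.09, 7.21 and 6.94 on the KLS arrays and 6.38, 6.40, 6.73 and 6.40 on the MEP arrays and was among the KLS-high genes that differed more in WT than in TG mice, at 0.71 and 0.51.

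Scd1, Mboat2 and Gdpd1, which act on lipids, were each called higher in MEP cells. Scd1, the desaturase that makes oleic acid from stearic acid, had 6.31, 6.69, 6.08 and 6.62 on the KLS arrays and 7.65, 8.02, 7.37 and 7.54 on the MEP arrays. All MEP arrays lay above all KLS arrays, and the signal was 2.33-fold higher in MEP cells, a difference of -1.22 ± 0.16 (adjusted p = 0.0142), -1.34 in WT and -1.11 in TG mice. Mboat2, which adds acyl chains to lysophospholipids, had 7.74, 8.17, 8.11 and 8.57 on the KLS arrays and 8.68, 9.54, 9.30 and 9.34 on the MEP arrays and differed by -1.07 ± 0.20 (adjusted p = 0.0437). Gdpd1, a phosphodiesterase of lysophospholipids, had 6.20, 6.53, 6.84 and 6.62 on the KLS arrays and 7.47, 8.0, 7.69 and 7.80 on the MEP arrays and differed by -1.19 ± 0.14 (adjusted p = 0.0112). Other lipid genes, picked after their values were seen, were the acyl-CoA synthetases Acsl4 at -0.51 ± 0.10 and Acsm3 at -0.58 ± 0.11, the phospholipase Pla2g12a at -0.59 ± 0.11 and the receptor Paqr9 at -0.67 ± 0.12. No list of lipid genes was fixed, so there is no count for the group. Each of these 7 genes held within WT and within TG mice. Scd1, Gdpd1, Mboat2, Paqr9 and Pla2g12a were also called with median centring.

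Membrane and transport genes followed. Pkhd1l1, a large fibrocystin-like membrane protein, had the largest MEP-high difference, with 7.36, 7.93, 7.16 and 8.09 on the KLS arrays and 8.64, 9.20, 8.89 and 8.90 on the MEP arrays and -1.27 ± 0.22, or 2.42-fold (adjusted p = 0.0381), and nearly equal sizes of -1.28 in WT and -1.27 in TG mice. Slc25a21, a mitochondrial carrier of oxodicarboxylates, had 7.14, 7.24, 7.83 and 8.08 on the KLS arrays and 8.37, 8.47, 8.48 and 8.69 on the MEP arrays. Its MEP arrays lay between 8.37 and 8.69, and the WT KLS arrays lay further below them than the TG KLS arrays, so that the difference of -0.93 ± 0.11 (adjusted p = 0.0103) was -1.23 in WT and -0.63 in TG mice. Gpr155, a lysosomal membrane protein that senses cholesterol, had 6.85, 6.97, 6.80 and 6.91 on the KLS arrays and 7.99, 7.89, 7.73 and 7.53 on the MEP arrays and differed by -0.90 ± 0.10 (adjusted p = 0.01). Serinc5, a membrane protein that limits retroviral infectivity, had 7.17, 7.05, 7.23 and 7.27 on the KLS arrays and 8.40, 7.93, 7.89 and 7.93 on the MEP arrays and differed by -0.85 ± 0.12 (adjusted p = 0.02), with WT MEP 1 highest. The tight junction protein Cldn10 had 5.52, 5.82, 5.71 and 5.48 on the KLS arrays and 6.31, 6.49, 6.59 and 6.54 on the MEP arrays and differed by -0.85 ± 0.11 (adjusted p = 0.0153).

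Adaptors and cytoskeletal genes were next. Kbtbd8 and Klhl12 are both substrate adaptors of CUL3 ubiquitin ligases, and Kbtbd8 had 6.17, 6.05, 6.69 and 6.59 on the KLS arrays and 6.98, 7.34, 7.33 and 7.54 on the MEP arrays. The difference was -0.92 ± 0.12 (adjusted p = 0.0136), and for Klhl12 it was -0.91 ± 0.15 (adjusted p = 0.0356). Sh2d4a, an SH2 domain adaptor, had 7.06, 7.03, 7.42 and 7.48 on the KLS arrays and 7.82, 8.53, 8.35 and 8.55 on the MEP arrays and differed by -1.06 ± 0.15 (adjusted p = 0.0203). Nckap1, a subunit of the WAVE complex that starts actin branching, had 7.76, 7.90, 8.07 and 8.25 on the KLS arrays and 8.51, 8.92, 9.04 and 9.02 on the MEP arrays and differed by -0.88 ± 0.12 (adjusted p = 0.016). Bcl2l15, a BCL2 family member, had 6.49, 6.94, 6.68 and 7.12 on the KLS arrays and 7.29, 7.95, 7.80 and 7.82 on the MEP arrays and differed by -0.91 ± 0.18 (adjusted p = 0.0477). Nxpe2 differed by -0.97 ± 0.19 and its neighbour Nxpe4 by -0.75 ± 0.14, at adjusted p-values of 0.0449 and 0.0421 in limma.

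**Figure D4:**
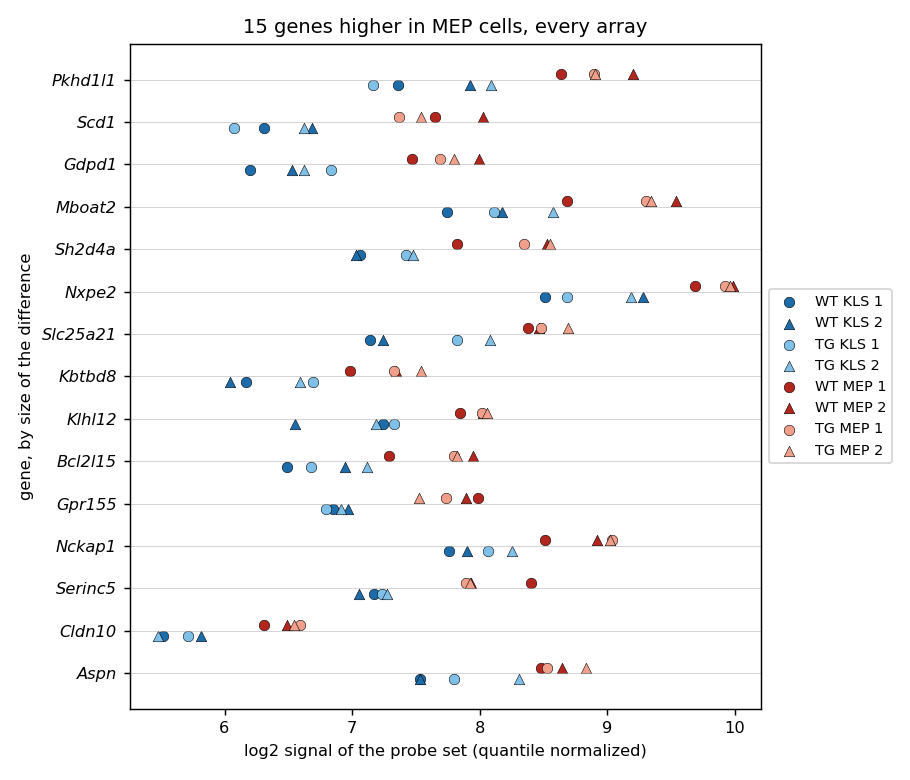
Log2 signal (x axis) on every array for the 15 MEP-high genes with the largest differences outside the marker lists whose arrays did not overlap (y axis, by size). Blue points are KLS arrays, red points are MEP arrays, circles are the first and triangles the second replicate. The gap is narrower than for the KLS-high genes, with a largest difference of -1.27 for Pkhd1l1.

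Of 44 DNA repair genes 1, or 2.27%, was called, against 1.6% of all genes. Fancm, the DNA translocase of the Fanconi pathway, had 7.37, 7.20, 7.61 and 7.65 on the KLS arrays and 7.96, 7.96, 7.92 and 8.05 on the MEP arrays and differed by -0.52 ± 0.10 (adjusted p = 0.044). It was this 1 gene, and its call was lost with the values as deposited, with median centring and with any 1 array left out. The list's median was -0.17, and 9 of 44 lay above 0. Gen1, a resolvase of Holliday junctions that was picked after its values were seen, had 8.75, 8.65, 9.15 and 8.99 on the KLS arrays and 9.66, 9.75, 9.54 and 9.68 on the MEP arrays and differed by -0.77 ± 0.10 (adjusted p = 0.0136), -1.01 in WT and -0.54 in TG mice. Genes of replication and mitosis, for which no list was fixed and which were picked the same way, were the origin subunit Orc1 at -0.62 ± 0.11, the spindle proteins Aspm at -0.57 ± 0.10 and Kif18a at -0.61 ± 0.12, the condensin subunit Ncapg at -0.53 ± 0.09 and the mitotic kinase Mastl at -0.57 ± 0.10. The MEP arrays lay above the KLS arrays for each of these in WT and in TG mice, and Orc1, Kif18a, Ncapg and Mastl were not called with median centring.

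A run of matrix protein genes stood out among the MEP-high genes. Aspn, asporin, had 7.53, 7.53, 7.80 and 8.31 on the KLS arrays and 8.48, 8.65, 8.53 and 8.83 on the MEP arrays and differed by -0.83 ± 0.14 (adjusted p = 0.0356). Ogn had 6.25, 5.91, 6.56 and 6.58 on the KLS arrays and 7.19, 7.25, 6.84 and 7.16 on the MEP arrays and differed by -0.79 ± 0.12 (adjusted p = 0.0266), and Ecm2 differed by -0.65 ± 0.12 (adjusted p = 0.0406). All 3 are leucine-rich proteins of connective tissue, and their gene models lie inside that of the centromere protein gene Cenpp in RefSeq (GRCm38.p6). Omd, also inside it, differed by -0.88 ± 0.19 (adjusted p = 0.0549), and Cenpp itself by -0.64 ± 0.15 (adjusted p = 0.0767), and neither was called. Signal from Cenpp transcripts and from the genes inside it cannot be told apart here, because the place and strand of the probes are not stated in the sources at hand. The stromal and endothelial markers as a list ran the other way, with a mean of 6.55 to 6.70 on the KLS and 6.01 to 6.12 on the MEP arrays. Apart from Aspn, the genes of this run were picked after their values were seen.

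Promoters were read for 15563 of the 19938 genes, from 250 bases before the first listed start in RefSeq (GRCm38.p6). The 4 shown are examples from the genes described above that carry a searched motif. Slc25a21, Cldn10 and Aspn also hold a CCAAT box and are not shown. Capitals mark the motif, GAGGAAGT in Atp8b4, CCAAT or its reverse complement ATTGG in Kbtbd8 and Mboat2, and AGATAA or its reverse complement TTATCT in Bcl2l15. They lie at chr2:126491554-126491803 (minus strand), chr6:95117630-95117879 (plus strand), chr12:24831349-24831598 (plus strand) and chr3:103832446-103832695 (plus strand), each written 5′ to 3′ on the gene's strand.
Atp8b4: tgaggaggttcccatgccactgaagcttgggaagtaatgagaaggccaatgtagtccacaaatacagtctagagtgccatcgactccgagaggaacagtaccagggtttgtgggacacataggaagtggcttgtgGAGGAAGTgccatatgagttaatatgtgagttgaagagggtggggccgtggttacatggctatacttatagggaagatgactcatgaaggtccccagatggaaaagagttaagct
Kbtbd8: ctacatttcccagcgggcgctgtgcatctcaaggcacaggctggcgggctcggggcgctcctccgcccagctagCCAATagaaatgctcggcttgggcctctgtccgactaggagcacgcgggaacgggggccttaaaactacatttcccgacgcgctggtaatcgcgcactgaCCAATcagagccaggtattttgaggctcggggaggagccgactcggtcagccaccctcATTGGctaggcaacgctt
Mboat2: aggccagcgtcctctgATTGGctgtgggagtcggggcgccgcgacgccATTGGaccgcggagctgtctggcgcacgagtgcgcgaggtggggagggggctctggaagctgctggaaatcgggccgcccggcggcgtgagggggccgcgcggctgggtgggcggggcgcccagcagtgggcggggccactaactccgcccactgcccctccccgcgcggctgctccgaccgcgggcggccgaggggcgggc
Bcl2l15: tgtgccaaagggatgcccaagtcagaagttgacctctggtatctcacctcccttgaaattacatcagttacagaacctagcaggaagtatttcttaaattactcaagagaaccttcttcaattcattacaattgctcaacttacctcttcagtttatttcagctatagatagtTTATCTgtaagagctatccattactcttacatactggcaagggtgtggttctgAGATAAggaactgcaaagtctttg
Each motif was searched on both strands, and none contains another. Only the motif named above for each gene is in capitals, and other searched motifs are left in small letters. The KLS-high gene Atp8b4 also holds CCAAT, and Mboat2 also holds GGGCGG. The CCAAT box, bound by NF-Y, was present in 37 of the 63 MEP-high promoters (58.7%), in 54 of the 191 KLS-high promoters (28.3%) and in 35.5% of all 15563. Kbtbd8 holds 3 copies, from 18 to 176 bases before the start, and Mboat2 holds 2. The GATA motif AGATAA was in 9 of 63 MEP-high (14.3%), 13 of 191 KLS-high (6.81%) and 8.75% of all promoters, and Bcl2l15 holds 2. The PU.1 type ETS motif GAGGAAGT was in 0 of 63 MEP-high, 7 of 191 KLS-high (3.66%) and 2.17% of all promoters, and the copy of Atp8b4 begins 115 bases before the start. The GC box GGGCGG was in 60.3%, 38.2% and 46.1%, the E-box CAGCTG in 15.9%, 14.1% and 12.2%, and the CACCC box CCACCC in 38.1%, 38.7% and 30.8%, in the same order. A match describes letters in a window and says nothing of binding.

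Called genes lay next to each other in places. Among 19856 genes with a place in RefSeq, 15 runs of neighbouring genes called in 1 direction held 31 of the 319 called genes, 12 runs on the KLS-high and 3 on the MEP-high side. How many runs chance would give was not tested. Runs with marker list genes included Prtn3 with Elane, Mcpt8 with Ctsg and Ms4a6b with Ms4a6c. Besides Parp8 and Emb the runs held Ifitm1, Ifitm2 and Ifitm3, interferon-induced proteins that block viral entry. Ifitm1 had 10.16, 10.66, 10.52 and 10.15 on the KLS arrays and 9.37, 8.63, 8.61 and 8.26 on the MEP arrays and differed by 1.66 ± 0.19 (adjusted p = 0.0105), against 0.65 ± 0.12 for Ifitm2 and 0.61 ± 0.11 for Ifitm3. Tfec neighboured Tes, at 1.47 ± 0.29, and Tyrobp neighboured the similar adaptor Hcst, at 0.81 ± 0.13. Tmem176a at 0.67 ± 0.13 and Tmem176b at 1.62 ± 0.26 formed another pair. These runs were described after the values were seen, and probes of near-identical neighbours such as the Ifitm genes may share signal.

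**Figure D5:**
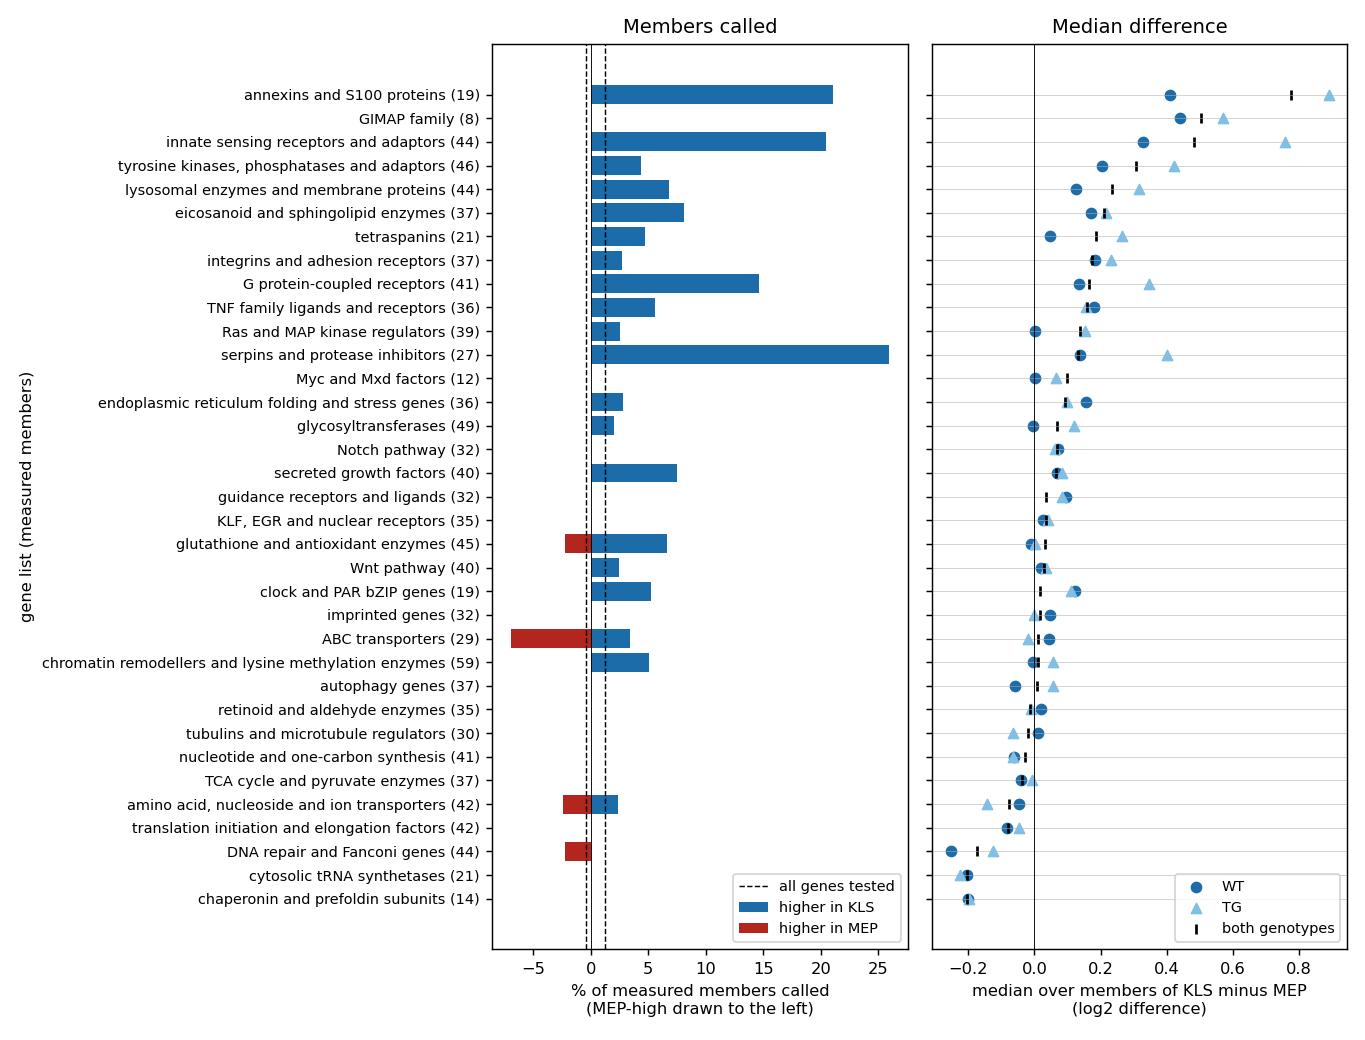
Left, share of measured members of the gene lists (y axis, number measured in parentheses) that were called, in percent, with KLS-high genes to the right and MEP-high genes to the left of 0 and dashed lines at the shares of all genes, 1.2% and 0.396%. Right, median log2 difference over each of these lists in WT (circles), TG (triangles) and both genotypes (bars). The highest median is that of the annexins and S100 proteins, at 0.77, and the lowest are near -0.20.

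Over the 36 lists together, 62 of 1248 measured genes were KLS-high and 5 MEP-high, or 5.37%, against 1.6% of all genes. The lists were drawn up with earlier results known, so this share describes them only. The lists of cytosolic tRNA synthetases, chaperonin and prefoldin subunits and translation factors had medians below 0 and 0 calls each. Of 21 cytosolic tRNA synthetases 1 lay above 0, with a median of -0.20 in both genotypes together, -0.20 in WT and -0.23 in TG mice. The one with the smallest p, Iars, differed by -0.38 ± 0.12 (adjusted p = 0.161 in limma). Of 14 chaperonin and prefoldin subunits 1 lay above 0, with a median of -0.20. Translation factors had a median of -0.08 over 42 genes. The GIMAP family of lymphoid GTPases was the reverse: all 8 lay above 0, with a median of 0.50, and 0 were called. Gimap6 came closest, with 9.25, 9.64, 9.19 and 9.06 on the KLS arrays and 8.85, 7.0, 7.13 and 7.57 on the MEP arrays and 1.65 ± 0.34 (adjusted p = 0.0514 in limma), and 4 of the 8 were called without WT MEP 1.

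Further lists with 0 calls had medians near that of all genes. Guidance receptors, imprinted genes, Myc and Mxd factors, KLF, EGR and nuclear receptors, nucleotide synthesis, the citric acid cycle, retinoid enzymes, autophagy and tubulins had medians from -0.04 to 0.10. Single members came close. Ppp1r9a, of the imprinted list, differed by 0.61 ± 0.12 (adjusted p = 0.0501 in limma). The retinal reductase Dhrs3 differed by 0.90 ± 0.19 (adjusted p = 0.0585) and the autophagy protease Atg4b by -0.57 ± 0.12 (adjusted p = 0.0582 in limma). Idh1, an NADPH source of the cytosol, differed by 1.24 ± 0.27 (adjusted p = 0.0639), and the ribonucleotide reductase subunit Rrm2 by -0.37 ± 0.09 (adjusted p = 0.0949 in limma).

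Hmga2 had 6.85, 7.12, 7.35 and 7.11 on the KLS arrays and 6.70, 6.74, 6.95 and 6.99 on the MEP arrays and a difference of 0.26 ± 0.11 that was not called (adjusted p = 0.309 in limma), with 0.26 in WT and 0.26 in TG mice. Whether its probe set lies in the part kept by the transgene is not stated in the sources at hand, so its values check nothing about the genotype labels. The genes with the smallest interaction p were Igkv8-30, Mab21l2, Fbxw22, Zfp931 and Olfr593, and the interaction was called for none of them (adjusted p = 1.00 for each in limma). Igkv8-30, an immunoglobulin light chain segment, had 6.85, 6.67, 5.36 and 5.66 on the KLS arrays and 5.32, 5.24, 5.03 and 5.25 on the MEP arrays. Only the WT KLS arrays were high for Igkv8-30, so the KLS minus MEP difference was 1.48 in WT and 0.37 in TG mice. Over both genotypes Igkv8-30 was called KLS-high, at 0.93. Zfp931 had 4.14, 4.93, 5.56 and 5.26 on the KLS arrays and 5.96, 5.86, 5.07 and 5.50 on the MEP arrays, with differences of -1.37 and 0.13.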

How the data were processed

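The deposited values were log2 signals of 35556 probe sets on 8 Affymetrix arrays, the scale being read from the values (1.71 to 14.0). Per the submitters' processing notes the tool was Affymetrix Expression Console. Version, summarization and normalization are given in none of the sources used here. Array medians spanned 0.106, more than the 0.1 allowed, so the arrays were quantile normalized. Of the probe sets, 21789 carried 1 gene symbol, 1621 several and 12146 none. The brightest of each gene's single-symbol probe sets gave 19938 genes.

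A mean for each of the 4 groups was fitted with lmFit and eBayes of limma 3.58.1, under R 4.3.3, on 4 residual and 4.82 prior degrees of freedom. Contrasts were KLS minus MEP over both genotypes, in WT, in TG, and their difference. Tests were two-sided, with Benjamini-Hochberg adjustment over all genes and calls at an adjusted p under 0.05. P-values measure the spread between pooled preparations. The fit was tested on simulated data.

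Named were the 15 largest called differences per direction outside the marker lists without overlap of arrays, up to 4 called members of each of 36 lists (otherwise the smallest p), the 5 smallest interaction p-values, and Hmga2. Members, lists and this rule were chosen with earlier results of these data known. Promoters come from RefSeq (GRCm38.p6). The counts of 1 list are not reported here, and it is left out of the plot of the lists.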

Additional observations from a re-analysis of the deposited data

Results flagged for a closer look

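In 23 of 358 sets of 4 arrays of a cell type, 1 array stood apart from the other 3 by more than Dixon's 95% limit for the gap over the whole range. The sets were those of the genes described and of the marker lists, many of them picked after their values were seen. They do not stand for all genes. Chance alone marks about 1 such set in 20, and the sets share the same arrays, so that rate is only a guide. WT MEP 1 was the array in 18 of the 23. It was the high MEP array for Fxyd5 (9.28 against 7.67 to 7.76 on the others), Gpr171 (9.27 against 6.95 to 7.01), Satb1 (8.82 against 6.75 to 6.81), Plac8 (11.24 against 9.12 to 9.36), Tes (7.80 against 6.29 to 6.35), Coro1a (8.24 against 6.74 to 6.98), Eif4e3 (8.57 against 7.12 to 7.33) and Ptpn22 (7.29 against 6.02 to 6.17). It was high by smaller gaps for Bcl2 at 7.86, S100a11 at 11.56, Anxa5 at 8.42, Itih5 at 5.67, Slc7a6 at 7.22, Chd7 at 7.96 and the MEP-high gene Serinc5 at 8.40. It was the low MEP array for Slc46a3 (7.65 against 8.01 to 8.08). The mean of the stem cell markers on it was 7.20 and that of the B cell markers 8.44.

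The other 5 lay on other arrays. TG KLS 2 was low for Rasal3 (7.28 against 7.42 to 7.44) and Batf (6.80 against 7.55 to 7.56). WT KLS 1 was high for Mgst2 (9.59 against 9.13 to 9.20), TG MEP 1 was high for Tox (6.73 against 6.38 to 6.40), and TG KLS 1 was high for the mast cell, basophil and eosinophil markers (6.65 against 6.39 to 6.42).

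For 3 genes the arrays lay on opposite sides in the genotypes. Mab21l2 was higher in KLS cells by 0.73 in WT mice and differed by -0.13 in TG mice, so TG less WT was -0.86. Fbxw22 differed by 0.32 and -0.69, so TG less WT was -1.02, and Olfr593 by 0.39 and -0.52, so TG less WT was -0.91. The interaction was not called for any of the 3 in limma (adjusted p = 1.00 for each).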

How the results depend on the processing

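All 319 genes called over both genotypes kept their direction under each alternative that gave them a value (311 had one without the dimmest 30% of genes). Their number was 123 with each array centred on its median, 780 at an adjusted p under 0.10 and 562 with the replicate number as a block. It ranged from 1 to 738 with 1 array left out. In WT mice the 1 call became 8 with the replicate block, 5 at an adjusted p under 0.10 and 0 with the WT arrays alone, and ranged from 1 to 59 with 1 array left out. In TG mice the 27 calls became 1 with median centring, 11 with robust variances, 111 with the replicate block, 74 at an adjusted p under 0.10 and 284 with the TG arrays alone, and ranged from 0 to 257. For the interaction the range was 0 to 10, and the other alternatives, the replicate block included, gave 0. When all 35556 probe sets were tested singly, a setting chosen after seeing the data, 1 was called over both genotypes (Hlf), 0 in WT and 0 in TG mice. More tests are adjusted for there, and limma's fit and its shared estimate of the spread were also made anew over all probe sets. The part of each in that drop was not tested, nor was the cause of the other shifts. A lone array left in a group is assumed to vary like the others.

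Deviations of same-numbered arrays from their group means correlated at 0.38 between WT KLS and TG KLS. The correlation was 0.35 between TG KLS and WT MEP and 0.18 between WT KLS and WT MEP. TG MEP ran the other way, at -0.17 with WT KLS, -0.28 with TG KLS and -0.21 with WT MEP. The numbers as given were thus not taken to pair the preparations. Whether arrays of different numbers share a preparation day or batch was not tested. Of the 77 named calls, the block ended 0, median centring 35 and the deposited values 20, and none changed sign. With 2 arrays per group, 8 in all, the number of arrays limits the precision.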

Other observations

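Several called genes of vesicle and granule traffic, for which no list was fixed, were picked after their values were seen, so they give no count for the group. Rab44 had 8.37, 7.71, 8.04 and 7.93 on the KLS arrays and 6.91, 6.49, 6.52 and 6.82 on the MEP arrays and differed by 1.33 ± 0.17 (adjusted p = 0.0136 in limma), with near-equal sizes of 1.34 in WT and 1.32 in TG mice. Rab27a, which docks secretory granules, differed by 1.29 ± 0.18, Rab31 by 1.07 ± 0.19, the cargo motor Myo5a by 1.31 ± 0.25 and the granule proteoglycan Srgn by 0.78 ± 0.15, and each held within both genotypes. Nucb2, which encodes a calcium-binding protein, had 8.76, 8.88, 8.84 and 8.24 on the KLS arrays and 7.82, 6.66, 5.82 and 6.18 on the MEP arrays and differed by 2.06 ± 0.25 (adjusted p = 0.0112 in limma), and Plac8 had 12.04, 11.68, 12.16 and 11.77 on the KLS arrays and 11.24, 9.12, 9.24 and 9.36 on the MEP arrays and differed by 2.18 ± 0.38 (adjusted p = 0.0362 in limma).

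Antigen processing and nucleic acid sensing genes picked the same way ran in the same direction. The immunoproteasome subunits Psmb8 and Psmb9 differed by 1.13 ± 0.19 and 1.03 ± 0.20, the peptide loader H2-DMa by 1.35 ± 0.19 and the DNA sensing adaptor Sting1 by 1.33 ± 0.25. Sting1 had 7.97, 7.61, 8.21 and 7.45 on the KLS arrays and 7.31, 6.29, 6.42 and 5.92 on the MEP arrays. The survival gene Bcl2 had 8.64, 8.25, 8.96 and 8.27 on the KLS arrays and 7.86, 6.89, 6.94 and 6.99 on the MEP arrays and differed by 1.36 ± 0.23 (adjusted p = 0.0359 in limma), and the galectin Lgals1 by 1.65 ± 0.31 (adjusted p = 0.044 in limma). On the MEP-high side, the iron importer Slc11a2 differed by -0.70 ± 0.13, the lysosomal transporter Slc46a3 by -0.77 ± 0.11, the chloride exchanger Clcn3 by -0.76 ± 0.11 and the microtubule protein Camsap2 by -0.76 ± 0.13, and each held within WT and within TG mice.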
